A study of Mus musculus with 6 samples.

Results

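The genes described here are 10 regulators of the step at which a cell leaves the resting state and commits to DNA replication. They comprise the 3 D cyclins (Ccnd1, Ccnd2 and Ccnd3), the 3 Cip/Kip inhibitors of cyclin-dependent kinases (Cdkn1a, Cdkn1b and Cdkn1c), 3 of the INK4 inhibitors (Cdkn2a, Cdkn2b and Cdkn2c) and Trp53, which encodes the transcription factor p53. They were chosen by gene symbol, and all 10 were found among the 45703 genes of the table. RNA had been sequenced from 6 biological replicate cultures of dorsal root ganglia, which hold the cell bodies of sensory neurons with their satellite glia; the mice were adult wild-type animals of the C57BL/6 strain, 4 to 6 weeks old. All 6 belonged to a single group: cells kept for 7 days in vitro in medium with 10% fetal calf serum, EGF at 10 ng/ml and FGF at 10 ng/ml, with RNA from 2 dishes per sample. No untreated, uncultured or growth-factor-free samples were analysed here. The labels do not say whether each replicate came from separate animals, so p-values of differences and slopes measure only the spread between these samples. Those of the chi-square test below measure departure from counting noise.

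D cyclins are made in response to growth factors and switch on the kinases CDK4 and CDK6, which phosphorylate the retinoblastoma protein and so release E2F transcription factors. INK4 proteins bind CDK4 and CDK6 and block their pairing with D cyclins, whereas Cip/Kip proteins bind cyclin-CDK complexes, above all those of CDK2. Cdkn1a is a classical target of p53, the factor that halts the cycle after DNA damage, and the Cdkn2a locus is known for switching on in cells that have been cultured for long or have stopped dividing for good. In peripheral nerve, Schwann cells and fibroblasts divide in culture, whereas sensory neurons do not.

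The libraries held 20070639 to 22968642 counts. Lists of marker genes of cell types were each scored as the mean of log2(CPM per kb + 0.1). CPM is the count of a gene scaled to its library's total in the usual way, and CPM per kb divides it by the exon length in kilobases. The scores describe the listed genes, and which cells made that RNA was not tested. The glial lineage list (6 genes) scored 6.49 to 7.11 and the neuron list (8 genes) 4.97 to 5.99. The fibroblast list (8 genes) scored 4.00 in replicate 1, between 5.04 and 6.25 in replicates 2, 3, 4 and 6, and 7.23 in replicate 5. The lists of mural cells (1.52 to 4.72), macrophages (-0.80 to 2.09) and endothelium (-1.54 to 1.57) also had their lowest score in replicate 1 and their highest in replicate 5, whereas the glial lineage and neuron lists were both lowest in replicate 5 and highest in replicates 2 and 3. The cell cycle list, 13 genes of S phase and mitosis with none of the 10 genes among them, scored 2.46 in replicate 1, while the remaining libraries scored 3.09 to 3.38. Replicates 1 and 5 therefore stood at opposite ends, and results that rest on them are given with and without them. The libraries are bulk RNA, so fewer cells of a type and less RNA per cell cannot be told apart.

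Sequence just before the transcription start is shown for the upstream start of Cdkn1a and for both starts of Cdkn2a. For both genes the count adds up RNA from more than 1 start site, as it does for Cdkn2c and Ccnd3. The windows come from RefSeq (GRCm38.p6), which matched 7 of the 10 genes with 11 windows; Ccnd1, Ccnd2 and Cdkn1c were not matched. Bases that the annotation places in an exon of the same gene are left out. In the upstream start of Cdkn1a (chr17:29090729-29090975, plus strand) capitals mark 20 bases that match 2 p53 half-sites side by side with 1 mismatch. Such a stretch was found in 1 of the 11 windows of these genes and in 0.0761% of all 32851 windows of 250 bases before a start. The window before the downstream start of Cdkn1a (chr17:29093519-29093768, plus strand) held no such stretch and is not shown. In the Cdkn2a windows capitals mark GGGCGG (the GC box) and TTCCCGC (an E2F core), searched on both strands. The first is the start of the transcript for p19Arf (chr4:89294654-89294869, minus strand) and the second that of p16Ink4a (chr4:89282193-89282442, minus strand). 
Cdkn1a, upstream start: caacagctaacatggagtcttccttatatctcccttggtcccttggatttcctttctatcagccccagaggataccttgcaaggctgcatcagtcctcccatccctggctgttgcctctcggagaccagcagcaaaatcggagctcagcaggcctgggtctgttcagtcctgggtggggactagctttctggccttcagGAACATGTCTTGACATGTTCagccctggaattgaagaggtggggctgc
Cdkn2a, p19Arf start: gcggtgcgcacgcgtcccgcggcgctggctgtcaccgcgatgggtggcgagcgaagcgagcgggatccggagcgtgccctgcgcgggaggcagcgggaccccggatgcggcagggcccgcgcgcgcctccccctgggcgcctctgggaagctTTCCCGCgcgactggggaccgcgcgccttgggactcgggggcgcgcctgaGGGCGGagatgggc
Cdkn2a, p16Ink4a start: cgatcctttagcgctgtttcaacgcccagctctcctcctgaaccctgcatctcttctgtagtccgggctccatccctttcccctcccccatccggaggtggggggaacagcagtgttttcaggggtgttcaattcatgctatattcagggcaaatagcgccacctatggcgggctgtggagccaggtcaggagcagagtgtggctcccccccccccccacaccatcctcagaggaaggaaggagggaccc
The 250 bases before the p19Arf start were 78.4% G or C and those before the p16Ink4a start 60%, against a median of 52.4% over all windows. The GC box was present in 32.7% of all windows and the E2F core in 3.82%, both over the full 250 bases. The full window before the p19Arf start held 2 GC boxes, of which the printed bases show 1, and 1 E2F core. The window before the p16Ink4a start held neither motif. Matching letters describe the window and show neither binding nor activity in these cultures.

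Transcripts of 8 of the 10 genes reached 1 CPM in all 6 libraries, as did 30.4% of all genes in the table. The exceptions were Cdkn1c, with 18 to 31 counts per library, and Cdkn2a, with 15 to 71. All 10 passed the filter on low counts, which kept 14998 genes. By mean CPM per kb the order was Ccnd1, Cdkn1a, Trp53, Cdkn1b, Ccnd3, Ccnd2, Cdkn2c, Cdkn2b, Cdkn2a and Cdkn1c. Ccnd1 stood at 202 ± 25.5 CPM per kb (SD, n = 6), above 98.6% of the 13911 genes that reached 1 CPM in every library. At the other end Cdkn1c stood at 0.497 ± 0.113 CPM per kb (SD, n = 6). The ranges over 6 libraries did not overlap between Ccnd1 and Cdkn1a, Cdkn1a and Trp53, Trp53 and Cdkn1b, or Cdkn2b and Cdkn2a. They overlapped for the 5 remaining neighbours in the order, although Cdkn2a was above Cdkn1c within each of the 6 libraries. Cdkn1b and Ccnd3, Ccnd3 and Ccnd2, Ccnd2 and Cdkn2c, and Cdkn2c and Cdkn2b each differed by less than the SD of their difference.

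**Figure D1:**
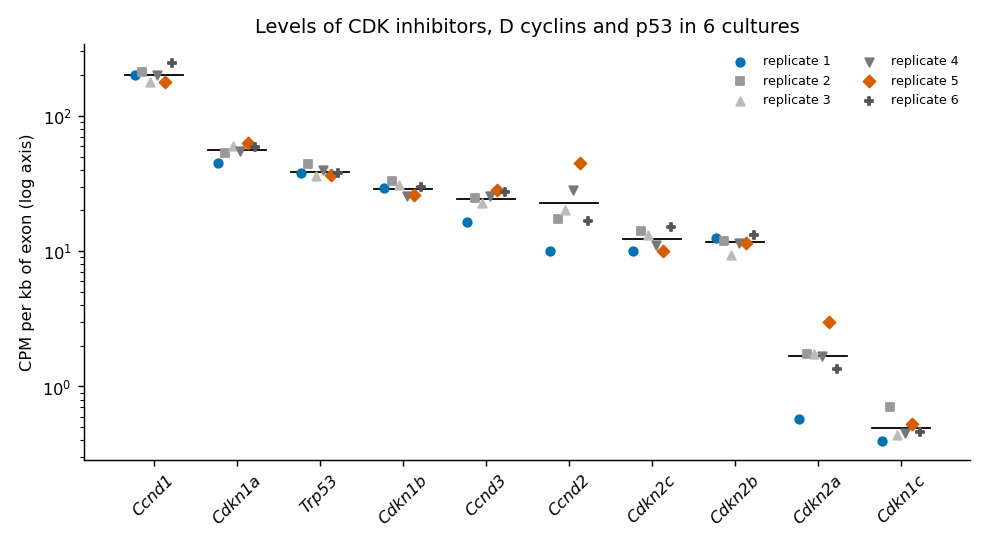
Level of each gene in CPM per kb of exon (log axis), 1 point per replicate culture, with the mean of 6 as a black line; genes are ordered by mean. Ccnd1 lies above all others in every culture, Ccnd2 and Cdkn2a are lowest in replicate 1 (blue) and highest in replicate 5 (orange), and Cdkn1c is the lowest gene in all 6.

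Cyclin D1 made up most of the D cyclin RNA. Ccnd1 (chromosome 7, 144929931 to 144939831, GRCm38.p6) was measured at 754.5, 796, 666, 751, 672 and 927 CPM in replicates 1 to 6. Replicate 6 was the highest and replicates 3 and 5 the lowest, a spread of 1.39-fold. Per kb, Ccnd1 exceeded Ccnd2 by 3.29 ± 0.83 and Ccnd3 by 3.07 ± 0.31 on the log2 scale (SD, n = 6), in 6 of 6 libraries each. Both differences passed the two-sided exact sign-flip permutation test (p = 0.0312, the smallest that 6 libraries can give, 0.0402 after Benjamini-Hochberg adjustment over the 9 within-family pairs). The adjusted value depends on how many of the 9 pairs reach that smallest p, here 7. The protein-coding gene LTO1 overlaps Ccnd1 by 818 bases on the opposite strand and held 475 to 674 counts, against 14061 to 19398 for Ccnd1. The strand setting of the counting is not given in the sources used here, so reads from the shared bases could have been assigned to either.

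Cyclin D2 was the most variable of the 3. Ccnd2 (chromosome 6, 127125162 to 127152188) was measured at 64, 110.3, 128, 181, 288 and 106.5 CPM in replicates 1 to 6. Replicate 5 was 4.51-fold above replicate 1, and without these 2 libraries the highest was 1.70-fold above the lowest. Ccnd3 (chromosome 17, 47505051 to 47599689) was measured at 41.4, 61.9, 57.3, 64.3, 70.6 and 68.3 CPM. Its replicate 1 was low and the other 5 lay within 1.23-fold of each other. Ccnd2 and Ccnd3 did not differ in level beyond their spread (-0.22 ± 0.55 on log2 CPM per kb, Ccnd2 minus Ccnd3, exact sign-flip permutation p = 0.344, adjusted 0.387). Ccnd2 was the higher of the pair in replicates 4 and 5 and the lower in the other 4 libraries. Counts of Ccnd2 and Ccnd3 were fractional in 3 libraries each, which can arise when reads are divided between places, and the Ccnd3 pseudogene Ccnd3-ps held 26.3 to 53 counts. The protein-coding gene Bysl overlaps Ccnd3 by 359 bases on the opposite strand and held 460 to 647 counts, against 950.3 to 1478.5 for Ccnd3, so the same limit of strand holds there.

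As shares of the family's summed CPM per kb, Ccnd1 took 88.3% in replicate 1, 70.9% in replicate 5 and 81.1% ± 6.03 on average (SD, n = 6). The share of Ccnd2 was 4.41% in replicate 1, 17.9% in replicate 5 and between 5.73% and 11.2% elsewhere. That of Ccnd3 stayed between 7.26% and 11.2%. The family sum itself lay between 219.7 and 289.9 CPM per kb, with replicate 3 lowest and replicate 6 highest.

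**Figure D2:**
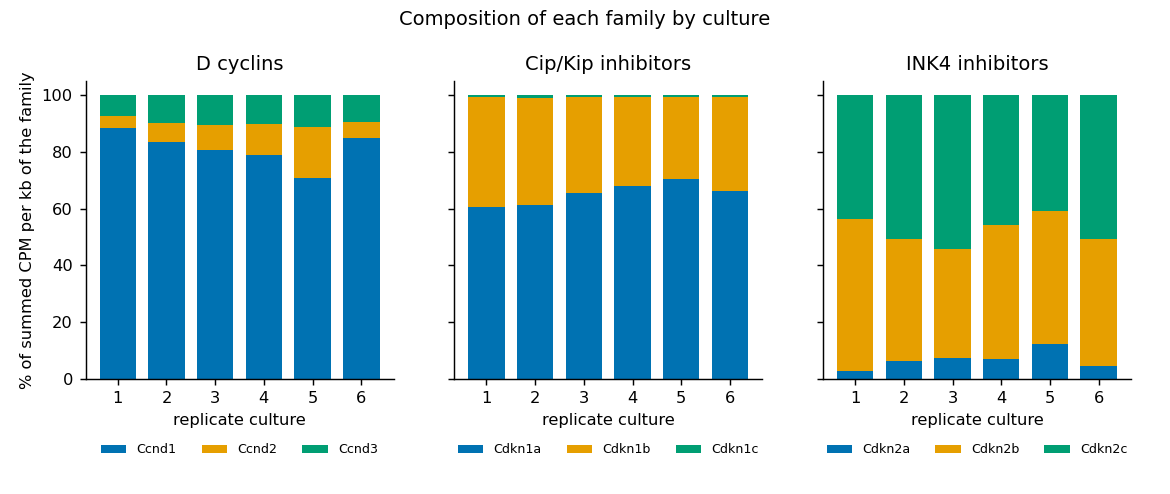
Percent of the summed CPM per kb of the 3 genes described of each family taken by each of them (stacked bars, bars start at 0), by replicate culture. The INK4 gene Cdkn2d is not counted. The Ccnd2 share runs from 4.41% in replicate 1 to 17.9% in replicate 5, the Cdkn1c share is below 1 percent in all libraries, and the Cdkn2a share runs from 2.5% to 12.2%.

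Among the Cip/Kip inhibitors, Cdkn1a (p21) was the highest, Cdkn1b (p27) followed and Cdkn1c (p57), an imprinted gene expressed from the maternal copy, was far below both. Cdkn1a (chromosome 17, 29090979 to 29100722) was measured at 91.7, 107.5, 121, 113, 128 and 119.9 CPM in replicates 1 to 6. Its lowest value came from replicate 1 and its highest from replicate 5, as for Ccnd2 and Ccnd3. Cdkn1b (chromosome 6, 134920401 to 134925525) was measured at 70.1, 78.8, 74.2, 61.3, 62.3 and 71.4 CPM, and replicates 4 and 5 were the lowest. Cdkn1c (chromosome 7, 143458339 to 143461059) was measured at 0.784, 1.41, 0.877, 0.897, 1.05 and 0.908 CPM, with replicate 2 the highest.

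Per kb, Cdkn1a exceeded Cdkn1b by 0.94 ± 0.25, and Cdkn1a and Cdkn1b exceeded Cdkn1c by 6.56 ± 0.27 and 5.62 ± 0.24 (log2, SD, n = 6). Each of the 3 differences had the same sign in 6 of 6 libraries, with p = 0.0312 by exact sign-flip permutation and 0.0402 after adjustment. The ratio of Cdkn1a to Cdkn1b per kb was 1.55 in replicate 1, 2.43 in replicate 5 and 1.61 to 2.17 in the other 4. Cdkn1a counts were whole numbers in all libraries, whereas those of Cdkn1b were fractional in 4.

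The 3 INK4 genes described here were lower than the D cyclins in sum. That sum and the INK4 shares leave out the INK4 gene Cdkn2d. Its mean of 18.2 CPM per kb was above the means of Cdkn2c (12.2), Cdkn2b (11.7) and Cdkn2a (1.67). Cdkn2b (p15, chromosome 4, 89306289 to 89311032) was measured at 17.3, 16.6, 13.1, 16.0, 16.0 and 18.4 CPM in replicates 1 to 6, and replicate 3 was the lowest. Cdkn2c (p18, chromosome 4, 109660876 to 109666756) was measured at 22.6, 31.6, 29.9, 25.0, 22.5 and 33.8 CPM, and replicates 1 and 5 were the lowest. The 2 genes did not differ per kb beyond their spread (-0.06 ± 0.30, log2, Cdkn2b minus Cdkn2c, exact sign-flip permutation p = 0.719, adjusted 0.719).

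Cdkn2a (chromosome 4, 89274473 to 89294619), which encodes p16Ink4a and, in another reading frame, the p53 activator p19Arf, was measured at 0.653, 1.96, 1.98, 1.89, 3.39 and 1.53 CPM. Its replicate 5 was 5.19-fold above replicate 1, and without these libraries the remaining 4 lay within 1.30-fold of each other. The table gives 1 count per gene, so RNA from the 2 starts shown above could not be separated. Cdkn2a lay below Cdkn2b by 2.85 ± 0.79 and below Cdkn2c by 2.91 ± 0.74 (log2 CPM per kb, SD, n = 6; exact sign-flip permutation p = 0.0312, adjusted 0.0402, for each). Both orders held in 6 of 6 libraries. The summed D cyclins exceeded the 3 INK4 genes by 9.75 ± 0.588 times per kb (SD, n = 6, range 9.0 to 10.4) and the Cip/Kip genes by 2.93 ± 0.292 times (range 2.42 to 3.26).

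Trp53 (chromosome 11, 69580348 to 69591873) had the narrowest spread of the 10 over all 6 libraries. It was measured at 86.2, 100.3, 82.8, 91.9, 83.8 and 87.3 CPM in replicates 1 to 6, a mean of 88.7 ± 6.52 CPM (SD, n = 6). Replicate 2 was the highest and the spread was 1.21-fold. This rank rests on replicate 1: without it the spread was 1.19-fold for Cdkn1a and 1.21-fold for Trp53, and without replicates 1 and 5 it was 1.13-fold for Cdkn1a, 1.19-fold for Ccnd3 and 1.21-fold for Trp53. Its counts were fractional in 3 libraries, and the pseudogene Trp53-ps held 30.5 to 40 counts against 1755 to 2204 for the gene.

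The next comparison asked which of the 10 genes differed between replicate cultures by more than counting noise. By a chi-square test of the 6 counts, 9 of the 10 did at a Benjamini-Hochberg adjusted p under 0.05, where 76.3% of all 14998 genes tested did, so the count is close to the background. The exception was Cdkn1c (adjusted p = 0.325), whose variance was 1.24 times that of counting noise (chi-square over its degrees of freedom). The coefficient of variation of CPM was 54.1% for Ccnd2, higher than that of 96.4% of the genes tested, and 46.6% for Cdkn2a, higher than 95.1%. It was 7.35% for Trp53, 9.79% for Cdkn1b, 11.0% for Cdkn2b and 11.3% for Cdkn1a, below the median of 12.1% over all genes. Ccnd1 (12.6%), Ccnd3 (17.4%), Cdkn2c (17.7%) and Cdkn1c (22.7%) were above that median. The median over the 10 genes was 15.0%. Without replicates 1 and 5, Ccnd2 stood at 131 ± 34.3 CPM and Cdkn2a at 1.84 ± 0.211 (SD, n = 4). With all 6 they stood at 146 ± 79.2 and 1.90 ± 0.886. Chi-square over its degrees of freedom was 899 for Ccnd2, 8.82 for Cdkn2a and 14.5 for Trp53. Without replicate 3, Cdkn2b no longer passed (adjusted p = 0.214, range over the 9 alternatives 6.99e-05 to 0.214).

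**Figure D3:**
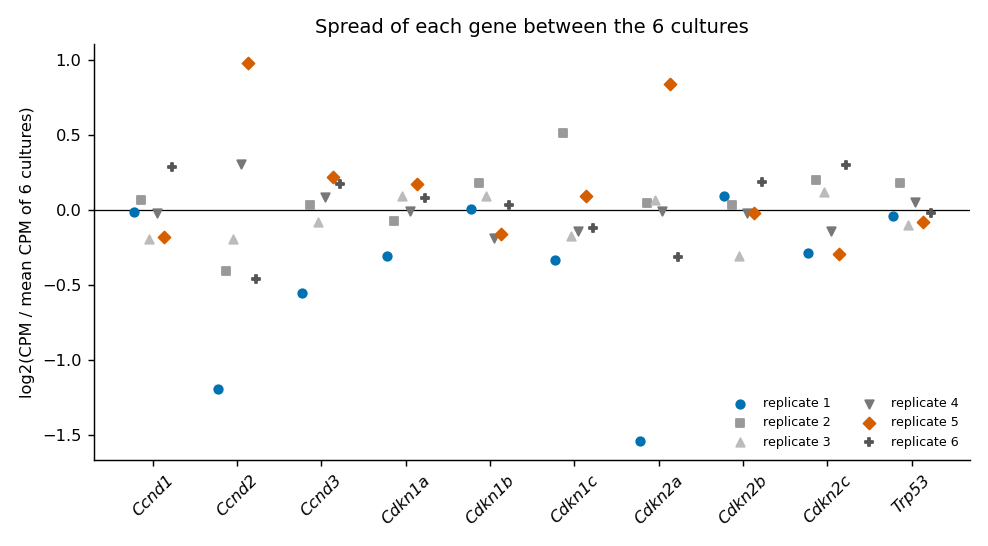
log2 of the CPM of each culture over the mean CPM of the 6 cultures, 1 point per replicate. Ccnd2 and Cdkn2a spread most, with replicate 1 (blue) lowest and replicate 5 (orange) highest, and Trp53 spreads least when all 6 cultures are counted.

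Fibroblast genes had differed most between cultures in earlier results of these data. The slope of each gene on the fibroblast score was therefore fitted for the whole table with edgeR's quasi-likelihood test. This score had the widest range of the marker lists. Its SD (1.11), however, was below those of the mural (1.20), macrophage (1.22) and endothelial (1.21) scores. A slope is the log2 change in level per log2 unit of score. Ccnd2 rose with the score, by 0.65 ± 0.03 (SE, n = 6, adjusted p = 0.000227), which is 1.57-fold per unit. It was the only 1 of the 10 genes called, where 6.38% of all genes were called, 5.05% higher and 1.33% lower with the score, and 3665 of 14998 had an unadjusted p under 0.05. The call held in each of the 6 fits that left out 1 library (slopes 0.63 to 0.66, adjusted p 0.000747 to 0.0144). Without replicates 1 and 5 together the slope was 0.61 with an adjusted p of 0.259, in an edgeR fit of 4 libraries that called 0 genes of the whole table and had 709 at an unadjusted p under 0.05. Cdkn2a had the next largest slope, 0.57 ± 0.13, and missed the threshold (adjusted p = 0.0508, range over the alternatives 0.0172 to 1.00). It was called by DESeq2 (adjusted p = 0.0172) and by edgeR without replicate 2 (adjusted p = 0.0489), and without replicates 1 and 5 its slope was 0.091.

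The other genes did not pass the same edgeR test. Ccnd3 had a slope of 0.18 ± 0.07 (adjusted p = 0.176) and Cdkn1a of 0.11 ± 0.04 (adjusted p = 0.200). Ccnd1 (-0.08 ± 0.07), Cdkn1b (-0.09 ± 0.05), Cdkn2b (-0.05 ± 0.07), Cdkn2c (-0.08 ± 0.10) and Trp53 (-0.02 ± 0.05) had slopes below 0, with adjusted p from 0.280 to 0.851. Without replicate 1, however, Cdkn2c was called lower with the score (slope -0.27, edgeR adjusted p = 0.0414), and without replicate 5 its slope was 0.057. The slope of Cdkn1c was 0.06 ± 0.14 (adjusted p = 0.814). Whether the slope of Ccnd2 differs from that of another D cyclin was not tested. The summed CPM of the mural list (179 to 1392), the macrophage list (11.4 to 123.6) and the endothelial list (6.44 to 105.4) was also lowest in replicate 1 and highest in replicate 5. In these lists 5 of 5, 4 of 6 and 1 of 5 genes reached 1 CPM in every library, no gene was at 0 in all of them, and their part in the slopes of Ccnd2 and Cdkn2a was not tested. Nor was that of the glial lineage and neuron lists, which in replicate 5 were at their lowest scores of 6.49 and 4.97.

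A second fit used the cell cycle score. None of the 10 genes was called by edgeR at an adjusted p under 0.05, where 0% of the 14998 genes were called and 2070 had an unadjusted p under 0.05. DESeq2 called 780 genes on the same score, 3 of the 10 among them: Ccnd3, Ccnd2 and Cdkn1a. The edgeR slopes of these were 0.81 ± 0.11 for Ccnd3 (adjusted p = 0.123), 1.76 ± 0.59 for Ccnd2 (adjusted p = 0.266) and 0.45 ± 0.11 for Cdkn1a (adjusted p = 0.167). Cdkn2a had a slope of 2.02 ± 0.56 (adjusted p = 0.204), and with these 3 it made up the 4 genes with an unadjusted p under 0.05. Slopes of Ccnd1 (0.07 ± 0.25, adjusted p = 0.925), Cdkn1b (-0.09 ± 0.19, adjusted p = 0.878) and Trp53 (0.00 ± 0.17, adjusted p = 0.997) were smaller than their errors. Replicate 1 was far below the others on this score, and without it and replicate 5 the slopes of Ccnd2 and Cdkn2a turned to -1.09 and -1.27 (adjusted p = 1.00 each). Those of Ccnd3 (0.77 to 0.83) and Cdkn1a (0.29 to 0.47) stayed above 0 in all 12 alternatives. Each of the latter was called in 1 of the 12, the DESeq2 fit.

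**Figure D4:**
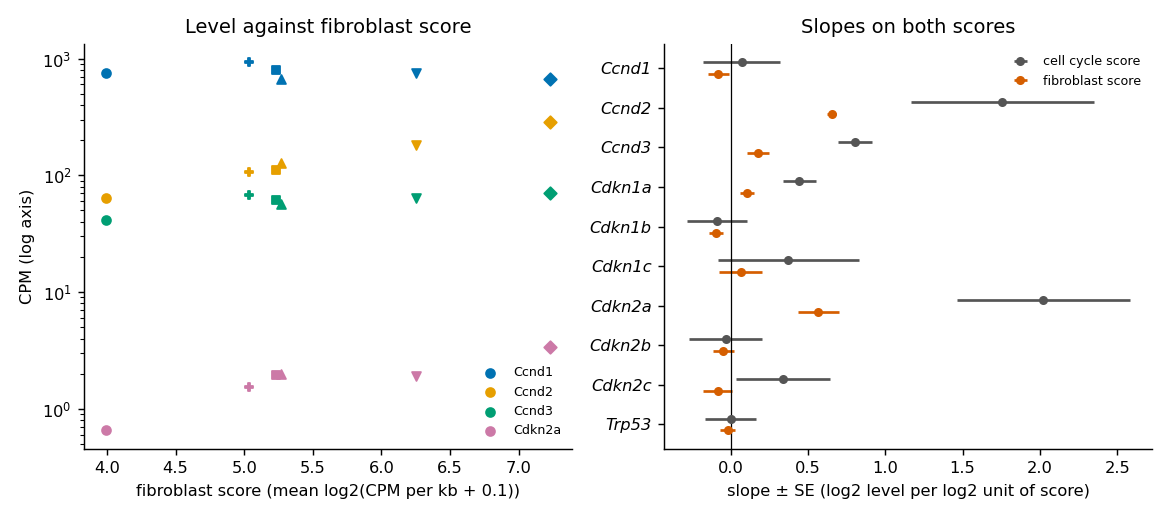
Left: CPM (log axis) of the D cyclins and Cdkn2a against the fibroblast score, 1 point per culture, with the marker shape giving the replicate as in the other plots. Right: edgeR slopes with their SE for all 10 genes on the cell cycle and the fibroblast score; on the fibroblast score Ccnd2 stands at 0.65 and was the only 1 called, and no gene was called on the cell cycle score.

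Partners, regulators and targets of these genes were taken from 4 lists. In the list of cyclin D partners and the Rb/E2F axis all 21 genes reached 1 CPM in every library. The highest were Cdk4, the kinase that D cyclins activate, at 91.9 ± 10.0 CPM per kb, E2f4, a mostly repressive E2F, at 18.6 ± 2.24, and the INK4 gene Cdkn2d (p19Ink4d) at 18.2 ± 2.64 (SD, n = 6). On the fibroblast score 1 of the 21 was called higher and 1 lower (5.05% and 1.33% of all genes), with a median slope of 0.07 against -0.01 over all genes. An unadjusted p under 0.05 was reached by 10 of the 21 and by 3665 of all 14998 genes. Cks1b, a small CDK subunit needed for the breakdown of p27, rose with the score (5.64 CPM in replicate 1, 25.6 CPM in replicate 5, slope 0.58 ± 0.08, edgeR adjusted p = 0.00722). Rb1, the retinoblastoma gene, fell with it (81.1 CPM in replicate 1, 60.4 CPM in replicate 5, slope -0.15 ± 0.03, edgeR adjusted p = 0.0457). Neither was called without replicate 5, and Rb1 was not called without replicate 1.

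Of 24 p53 target genes 22 reached 1 CPM in every library. The highest were Phlda3, an inhibitor of Akt signalling, at 91.1 ± 9.22 CPM per kb, the stress gene Gadd45a at 75.5 ± 17.0 and the pro-apoptotic Bax at 73.2 ± 7.31 (SD, n = 6). On the fibroblast score 5 of the 23 tested were called higher and 0 lower, where 5.05% of all genes were called higher and 1.33% lower, with a median slope of 0.03 against -0.01 over all genes. An unadjusted p under 0.05 was reached by 7 of the 23 and by 3665 of all 14998 genes. The 5 called were Plk3, a stress-responsive kinase, Eda2r and Tnfrsf10b, receptors of the TNF receptor family, Btg2, an antiproliferative cofactor, and Pmaip1 (Noxa), a pro-apoptotic BH3-only protein. Their slopes ran from 0.38 for Btg2 to 0.63 for Tnfrsf10b, with edgeR adjusted p from 0.0126 to 0.0296. Eda2r, for example, was measured at 7.84 CPM in replicate 1, 33.0 CPM in replicate 5 and between 15.6 and 20.7 CPM in replicates 2, 3, 4 and 6. The glial lineage and neuron lists were at their lowest and the mural, macrophage and endothelial lists at their highest in replicate 5, and their part in these slopes was not tested either. Without replicate 1, 4 of 23 were called higher, where 664 of 15235 genes were called higher and 270 lower. Plk2 there took the place of Btg2 and Tnfrsf10b. Without replicate 5, edgeR called 0 of 23 and 105 of all 15126 genes. In that fit 5 of the 23 and 1683 of the 15126 had an unadjusted p under 0.05.

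Among 10 p53 regulators, the deubiquitinase gene Usp7 stood at 26.9 ± 1.19 CPM per kb, Mdm4 at 18.0 ± 1.58 and Mdm2, the ubiquitin ligase that degrades p53 and is also its target, at 13.3 ± 1.27 (SD, n = 6). The p53 relative Trp73 had at most 2 counts in any library. Of the 8 regulators tested by edgeR on the fibroblast score 0 were called, 4 had an unadjusted p under 0.05 (3665 of 14998 over all genes), and Mdm2 had a slope of 0.10 ± 0.03 (adjusted p = 0.115). The 10 repressors of the Cdkn2a locus, mostly Polycomb genes, all reached 1 CPM in every library. Rnf2 (13.9 ± 0.879 CPM per kb), Suz12 (13.7 ± 0.577) and Eed (11.5 ± 0.882) were the highest (SD, n = 6). None of these 10 was called by edgeR on the fibroblast score and 1 had an unadjusted p under 0.05, with Suz12 at a slope of 0.04 ± 0.03 (adjusted p = 0.403). Without replicate 1, Tbx3 was called higher and Tbx2 lower, where 664 of 15235 genes were called higher and 270 lower. On the cell cycle score edgeR called 0 genes of the 4 lists. An unadjusted p under 0.05 was reached by 9 of 21 partners, 3 of 8 regulators, 7 of 23 targets and 1 of 10 repressors. Over all genes 2070 of 14998 reached it.

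**Figure D5:**
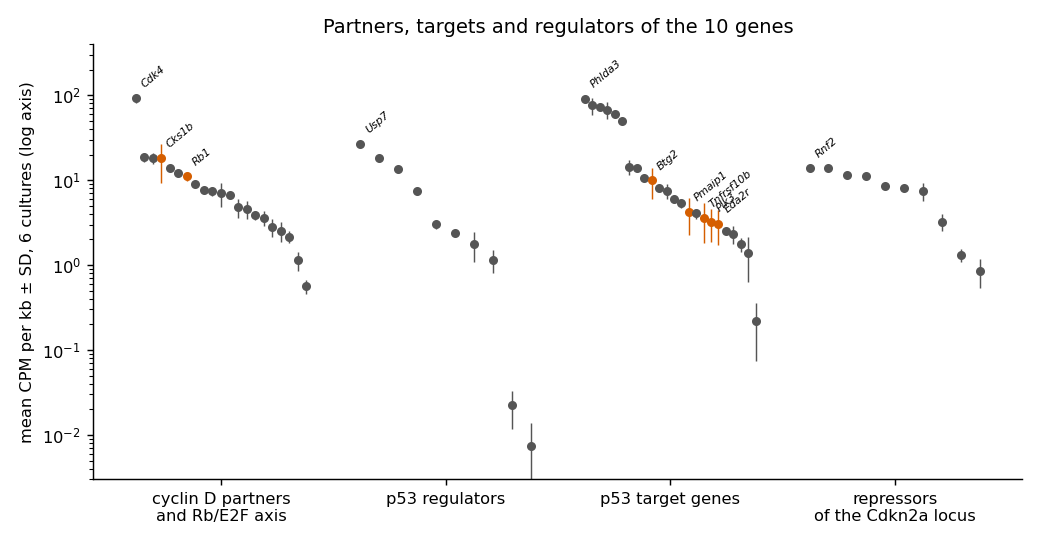
Mean CPM per kb ± SD over 6 cultures (log axis) of each gene of the 4 lists, ordered by level within a list; orange marks genes called on the fibroblast score, and each list's highest gene and the called genes are named. Cdk4 and Phlda3 are the highest at 91.9 and 91.1 CPM per kb, and the 5 p53 targets called lie between 3.07 and 9.91 CPM per kb.

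Genes whose pattern over the 6 libraries was most like that of the leading gene of each family were sought among 11933 genes with a mean of at least 5 CPM, by Pearson's r of log2(CPM + 0.5) and as a description only. For Ccnd1 they were Uqcrq (r = 0.99), Cdc42bpg (0.98) and Nxpe4 (0.98). Those most like Cdkn1a were Ackr3 (0.99), Agpat5 (0.99) and Nexn (0.99). For Cdkn2c they were Fam160b1 (1.00), Pmf1 (0.99) and Tbx2 (0.98), and for Trp53 Fbxl18 (0.99), Pigt (0.99) and Hsd3b7 (0.98).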

How the data were processed

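The deposited table gives estimated counts per gene for each culture, called raw by the authors, with no scaling and with fractions in 13.4% to 14.7% of the values of each library. Per the submitters' processing notes, bcl2fastq 2.20.0.422, cutadapt 2.5, STAR 2.7.2b, featureCounts 1.6.4 and the build GRCm38.p6 were used, with roles and settings not given in the sources used here. Per the labels, a stranded kit with poly-A capture was used on 500 ng of RNA (integrity numbers of at least 8.7) with 15 PCR cycles. All 45703 gene identifiers matched RefSeq of that build.

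CPM and CPM per kb came from the counts as deposited. Rounded counts were filtered with filterByExpr and scaled by TMM in edgeR 4.0.16 or by size factors in DESeq2 1.42.0, both under R 4.3.3. Variation was tested by chi-square. Slopes on a centred list score were tested by edgeR's quasi-likelihood test, with the SE taken as the slope over the root of F. Both were adjusted over all genes tested and tried on simulated data. The simulated score was evenly spread, unlike the scores here, so that trial does not test the slope calls. Differences between genes were taken within libraries with a pseudocount of 0.1 and tested by exact sign-flip permutation over 64 patterns. The genes, lists and rules were chosen with earlier results of these data known. Named genes were the 10 genes, the 3 highest of each list, list genes called or at most at 3 counts, and the most alike genes; the fifth p53 target, Plk2 and Tbx2 and Tbx3 were named after their values were seen. Alternatives were other scalings, filters, tools, pseudocounts and scores, and leaving out libraries.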

Additional observations from a re-analysis of the deposited data

Results flagged for a closer look

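Of the summed CPM per kb of the Cip/Kip genes, Cdkn1c took 0.823% in replicate 2, while its share in the other 5 libraries lay between 0.486% and 0.592%. The gap between replicate 2 and its nearest neighbour was 0.686 of the whole range, above Dixon's 95% critical value for 6 samples. Of 19 measures examined in this way (the CPM of each gene and its share of its family) 1 exceeded that value, where chance gives 0.95. The share rests on 31 counts in replicate 2 and 18 to 22 in the others, and by the chi-square test Cdkn1c did not vary beyond counting noise (adjusted p = 0.325).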

How the results depend on the processing

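All 9 within-family differences kept their direction and call with a pseudocount of 0.01 or 1. Without division by exon length, 9 of 9 passed in place of 7, and Ccnd2 minus Ccnd3 turned to 1.13, since the Ccnd2 transcript is longer. With 5 libraries the smallest possible p of the sign-flip test is 0.0625, so leaving out a replicate gives no test of these differences; none of their values moved by more than its SD, and 1 turned, Cdkn2b minus Cdkn2c, which ranged from -0.13 without replicate 1 to 0.027 without replicate 3. No paired analysis was possible because all samples belong to 1 group.

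On the fibroblast score, DESeq2 called 2 of the 10 genes and 1817 genes in all, and the fit without replicates 1 and 5 called 0 and 0. Fits without 1 replicate called 1 to 2 of the 10 and 105 to 934 genes in all. With both scores in 1 fit, an alternative chosen after seeing the data, 288 genes were called in all in place of 957. On the cell cycle score DESeq2 called 3 of the 10 and 780 genes in all.

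Some slopes that were not called changed sign, and the cause was not tested. On the cell cycle score, without replicates 1 and 5, they were Ccnd2 (-1.09), Cdkn1c (-0.61), Cdkn2a (-1.27), Cdkn2b (1.38) and Trp53 (-0.035). Fits without 1 replicate ranged from -0.14 to 0.54 for Ccnd1, -0.46 to 0.015 for Cdkn1b, -0.35 to 0.51 for Cdkn1c, -0.18 to 0.82 for Cdkn2b, -0.23 to 0.58 for Cdkn2c and -0.30 to 0.071 for Trp53. Trp53 was at -0.0099 without the filter, Cdkn2b at 0.028 with a median score and 0.16 with both scores in 1 fit, and Cdkn1b at 0.27 with both. On the fibroblast score, without replicates 1 and 5, they were Ccnd3 (-0.013), Cdkn1a (-0.062), Cdkn1c (-0.20) and Trp53 (0.015). Fits without 1 replicate ranged from -0.044 to 0.11 for Cdkn1c, -0.27 to 0.057 for Cdkn2c and -0.052 to 0.033 for Trp53, and Cdkn1c was at -0.033 with both scores in 1 fit. The chi-square test called 8 or 9 of the 10 genes in each alternative, and 10098 to 13488 genes in all. Cdkn1c and Cdkn2a rest on 15 to 71 counts per library, which limits the precision of their slopes.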
